A study of Homo sapiens with 12 samples.

Results

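Type I interferon-stimulated genes are the genes that cells switch on when an antiviral interferon reaches them. They were followed here through human microglia-like cells with and without a knockout of MEF2C, and with and without bacterial lipopolysaccharide (LPS). The 48 genes were chosen by symbol, and each matched 1 of the 57992 Ensembl gene IDs in the table of read counts. All 48 were among the 16022 genes with enough reads to be tested. The symbols were a fixed list and no level in these libraries was used by the rule itself.

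Type I interferons bind a receptor made of IFNAR1 and IFNAR2, whose kinases JAK1 and TYK2 phosphorylate STAT2. It joins IRF9 in a complex that binds a short promoter sequence, the interferon-stimulated response element (ISRE), and turns on proteins that block viral entry, sense viral RNA and stop its translation. In macrophages and microglia, LPS is sensed by TLR4, which can reach the same genes through the adaptor TICAM1, the kinase TBK1, the factor IRF3 and secreted interferon beta.

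The cells were induced microglia-like cells (iMGLs) made from H1, an established line of human pluripotent stem cells, so all come from 1 starting line. The labels give their tissue as brain, although the cells were differentiated in culture. RNA was sequenced from 12 libraries in 5 groups. KO LPS BMS denotes MEF2C-knockout cells given LPS and BMS265246, an inhibitor of cyclin-dependent kinases (2 libraries), KO LPS knockout cells given LPS (2 libraries) and WT LPS wild-type cells given LPS (2 libraries). KO denotes knockout cells given vehicle (3 libraries) and WT wild-type cells given vehicle (3 libraries). The title of the series names CDK2 inhibition as its subject. No WT library had the compound, and no library had the compound without LPS. The sources used here do not give how the knockout was made, the number of knockout lines, the doses, the exposure times or the nature of the vehicle.

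MEF2C, the targeted gene, had 136, 129 and 135 CPM (counts scaled to the size of the library) in KO libraries, against 193, 183 and 177 CPM in WT libraries. Reads of the gene were still present in the knockout cells, at a lower level (log2 fold change -0.47 ± 0.05, edgeR adjusted p = 4e-07). With LPS, MEF2C was low in both genotypes. It had 43.7 and 44.1 CPM in KO LPS BMS libraries, 45.9 and 46.8 CPM in KO LPS libraries and 49.6 and 51.6 CPM in WT LPS libraries, and KO LPS did not pass against WT LPS (-0.13 ± 0.07, edgeR adjusted p = 0.187). Libraries held 13888283 to 17639136 counts, and a count of 0 allows up to 3 counts, or 0.154 to 0.236 CPM, a floor that covers counting error only. The summed level of 16 microglia and macrophage markers was 7224 to 8412 CPM. CSF1R, the receptor that keeps these cells alive, had 1469 CPM or more in every library, whereas CD68 and SALL1 were at or under 0.258 CPM. Whether the low count of CD68 comes from the cells or from the way reads were counted was not tested. P2RY12, a marker of resting microglia, had 5.41 to 5.99 CPM in KO LPS BMS, 1.78 to 1.93 CPM in KO LPS, 1.69 to 1.93 CPM in WT LPS, 10.7 to 12.5 CPM in KO and 13.2 to 16.6 CPM in WT libraries. Other markers of the list did not all move that way. CX3CR1 had 719 and 882 counts in KO LPS BMS libraries, against 1343 and 1221 counts in KO LPS libraries. Of 14 tested, 9 were higher and 4 lower in that comparison, beside 22.3% and 25.5% of all genes. In WT LPS against WT, 2 were higher and 6 lower, beside 28.9% and 30.8% of all genes. The pluripotency markers summed to at most 0.618 CPM. The 2 KO LPS libraries differed from each other more than the pairs of any other group (chi-square per degree of freedom 11.05, against 2.02 to 6.99 elsewhere).

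The promoters of these genes were searched in windows of 300 bases, 250 before and 50 after each transcription start in RefSeq on GRCh38.p14. Windows were at hand for 40 of the 48 genes, and IFIT2, USP18, OAS2, OASL, MX2, IFITM2, SIGLEC1 and TRIM22 had none. The ISRE core was searched on both strands as GAAA, any 2 bases and GAAA again, which reads TTTC, any 2 bases and TTTC on the other strand. It stood in a window of 30 of the 40 genes (75.0%), against 1195 of 27305 genes (4.38%). The GAS element TTCNNNGAA, known from the response to interferon gamma, which reads the same on both strands, stood in 11 of 40 (27.5%), against 9.38% of all genes. A GAS match can share bases with an ISRE core, as it did in BST2, EPSTI1, IFI27, IFITM1 and MX1. An NF-kB site, GGGA, any base and TTTCC, or GGAAA, any base and TCCC on the other strand, stood in the windows of IFIH1 and OAS3 (2 of 40, 5.0%), against 0.678% of all genes. Such a match describes letters in a window, not a bound site. The 200 bases before the start are shown for 6 genes that the results turn on, with the ISRE core in capitals. ISG15 had the largest rise in knockout cells, and IFIT1 the largest genotype difference with LPS. IFIT5 and IFIH1 were among the genes that rose with the compound, SAMD9 had the largest fall with it, and PLSCR1 rose with LPS while most of the genes fell. ISG15 lies at chr1:1013297-1013496, + strand, IFIT1 at chr10:89392423-89392622, + strand and IFIT5 at chr10:89414368-89414567, + strand. IFIH1 lies at chr2:162318685-162318884, - strand, PLSCR1 at chr3:146544608-146544807, - strand and SAMD9 at chr7:93117980-93118179, - strand.
ISG15: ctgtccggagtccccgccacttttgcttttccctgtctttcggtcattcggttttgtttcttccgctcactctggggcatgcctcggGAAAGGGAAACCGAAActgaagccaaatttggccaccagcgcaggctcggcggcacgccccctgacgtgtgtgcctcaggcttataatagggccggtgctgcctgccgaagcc
IFIT1: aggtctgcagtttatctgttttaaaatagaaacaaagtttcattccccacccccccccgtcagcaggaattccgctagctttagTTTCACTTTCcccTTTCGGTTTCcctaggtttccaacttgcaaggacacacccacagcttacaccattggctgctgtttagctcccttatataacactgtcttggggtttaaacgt
IFIT5: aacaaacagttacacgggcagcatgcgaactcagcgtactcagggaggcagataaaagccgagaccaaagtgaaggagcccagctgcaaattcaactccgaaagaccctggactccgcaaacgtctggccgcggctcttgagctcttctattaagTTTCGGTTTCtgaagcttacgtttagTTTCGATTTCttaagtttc
IFIH1: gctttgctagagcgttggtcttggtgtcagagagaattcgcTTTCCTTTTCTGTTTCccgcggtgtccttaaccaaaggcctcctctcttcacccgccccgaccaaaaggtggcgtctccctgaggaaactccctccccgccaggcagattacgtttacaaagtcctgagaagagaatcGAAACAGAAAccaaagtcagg
PLSCR1: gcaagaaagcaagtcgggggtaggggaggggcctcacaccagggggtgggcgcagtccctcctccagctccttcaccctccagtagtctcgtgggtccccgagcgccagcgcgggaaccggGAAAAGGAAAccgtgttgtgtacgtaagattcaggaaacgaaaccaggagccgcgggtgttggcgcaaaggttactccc
SAMD9: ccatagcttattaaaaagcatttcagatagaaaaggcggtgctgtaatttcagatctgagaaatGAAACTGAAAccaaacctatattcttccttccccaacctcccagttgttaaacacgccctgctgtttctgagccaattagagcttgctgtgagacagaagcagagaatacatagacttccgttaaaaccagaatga
In these 200 bases ISG15, IFIT1 and IFIT5 each held 2 ISRE cores, which overlap each other in ISG15. IFIH1 held 3, a pair of them overlapping, and PLSCR1 and SAMD9 held 1 each.

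Together the 48 genes took 0.772% to 0.805% of all counts in KO LPS BMS libraries, 0.681% to 0.701% in KO LPS, 0.359% to 0.363% in WT LPS, 0.97% to 1.00% in KO and 0.567% to 0.647% in WT libraries. No group overlapped another on this share. WT LPS had the lowest group mean for 38 of the 48 genes (79.2%), against 26.8% of all genes tested. The highest mean was in KO for 23 genes (47.9%, against 16.4% of all genes) and in KO LPS BMS for 20 (41.7%, against 27.3%). The 10 genes with their lowest mean elsewhere were OASL, IFIH1, DDX60L, IFITM3, PARP12, DTX3L and ISG20, lowest in WT, and PLSCR1, TRIM5 and SAMD9, lowest in KO LPS BMS. Per kilobase of exon, IFI6 stood highest in all 5 groups, with a mean of 1430.0 CPM per kb in KO and 678 CPM per kb in WT libraries, followed by BST2. RTP4 and ISG20 stood lowest, at 0.531 and 0.239 CPM per kb in KO libraries. Both stood on few reads, 5 to 21 counts per library for RTP4 and 21 to 46 for ISG20.

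**Figure D1:**
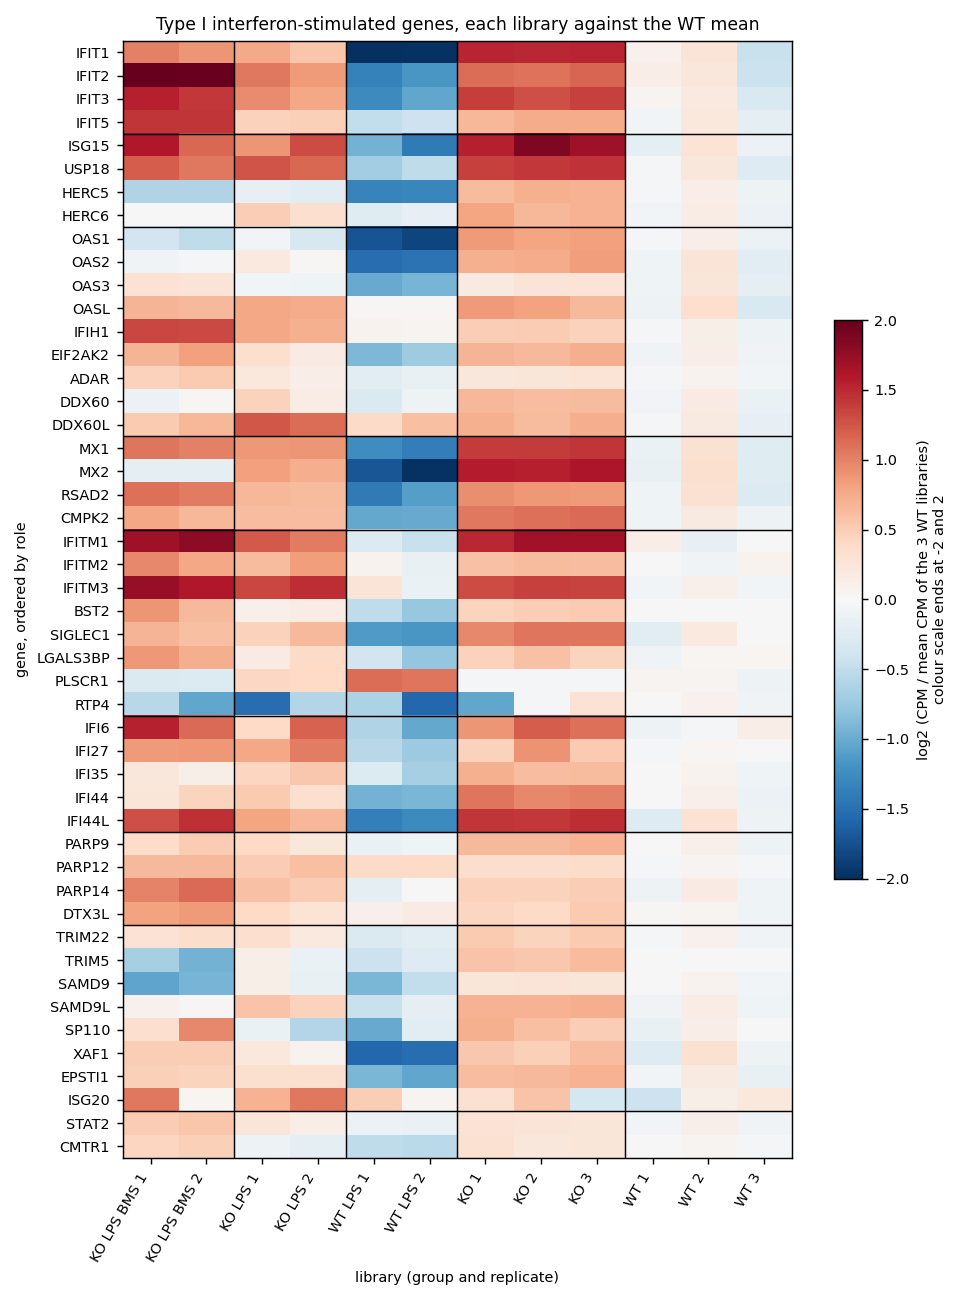
Log2 ratio of each gene's CPM in each of the 12 libraries (columns, by group) to the mean of the 3 WT libraries, with the 48 genes ordered by role; the colour scale ends at -2 and 2. KO columns are above the WT mean for 46 genes each and WT LPS columns for 8 and 9, and IFIT2 in KO LPS BMS replicate 1 is beyond the end of the scale.

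Without LPS, the knockout cells carried more transcript of nearly the whole set. In KO against WT, 44 of the 48 genes rose, none fell and 4 did not pass, while 21.6% of all genes tested passed, 10.2% of all genes upward and 11.4% downward (edgeR quasi-likelihood test, adjusted p under 0.05 over 16022 genes). The median log2 fold change was 0.67, against -0.015 over all genes, and 14 genes rose at least 2-fold, against 3.68% of all genes that changed so in either direction. All KO libraries lay above all WT libraries for 44 genes and below them for 0, against 18.1% and 22.3% of all genes. In RNA from whole cultures, a change in the share of cells that express a gene and a change in RNA per cell cannot be told apart.

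The ISG15 system rose in all 4 of its genes. ISG15 (ENSG00000187608, chromosome 1, 1001138 to 1014540 on GRCh38), a ubiquitin-like protein that is attached to other proteins, had 142, 175 and 156 CPM in KO libraries, against 41.9, 58.001 and 44.6 CPM in WT libraries. The groups were far apart, and the log2 fold change was 1.71 ± 0.20 (SE, edgeR adjusted p = 0.000525), the largest of the 48. USP18 removes ISG15 from proteins and also restrains the interferon receptor. It had 31.5, 32.5 and 33.3 CPM in KO libraries, against 12.1, 14.3 and 10.2 CPM in WT libraries (log2 fold change 1.41 ± 0.10, edgeR adjusted p = 4.39e-10). HERC5, the human ligase of ISG15, and its neighbour HERC6, which serves that role in mouse, rose by less, with log2 fold changes of 0.69 and 0.72.

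All 4 IFIT genes, which lie close together on chromosome 10, rose as well, by 0.72 to 1.52. IFIT1 (ENSG00000185745, chromosome 10, 89392546 to 89406486) binds viral RNA that lacks a host-type cap. It had 174, 173 and 175 CPM in KO libraries, against 64.7, 72.6 and 44.8 CPM in WT libraries. The KO libraries lay within a few CPM of each other and the WT libraries were spread more widely (log2 fold change 1.52 ± 0.15, edgeR adjusted p = 8.42e-05). IFIT3, a partner that stabilises IFIT1, had 238, 225 and 235 CPM in KO libraries, against 95.2, 105 and 74.5 CPM in WT libraries, and its log2 fold change was 1.34 ± 0.11.

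Among the MX and viperin genes, again 4 of 4 rose, by 0.88 to 1.58. MX1 (ENSG00000157601, chromosome 21, 41420304 to 41459214), a dynamin-like GTPase that traps viral nucleoproteins, had 386, 387 and 393 CPM in KO libraries, against 134, 181 and 124 CPM in WT libraries. Its neighbour MX2, which acts against retroviruses, had 139.8, 139 and 144 CPM in KO libraries, against 42.5, 59.1 and 40.2 CPM in WT libraries, a log2 fold change of 1.58 ± 0.12 (edgeR adjusted p = 2.87e-06). Both genes were more than 2-fold higher, and WT replicate 2 was the highest WT library for each. RSAD2, which encodes the antiviral enzyme viperin, had 51.8, 49.8 and 49.02 CPM in KO libraries, against 25.6, 33.6 and 22.5 CPM in WT libraries. CMPK2, a nucleotide kinase encoded next to it, had 155, 161 and 165 CPM in KO libraries, against 70.6, 84.2 and 69.3 CPM in WT libraries. Their log2 fold changes were 0.88 ± 0.11 and 1.10 ± 0.06.

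Membrane and secreted proteins were mixed, with 6 of 8 genes higher. IFITM1 and IFITM3 block the fusion of virus and cell membranes. IFITM1 had 19.9, 22.3 and 22.4 CPM in KO libraries, against 7.67, 6.23 and 7.05 CPM in WT libraries, a log2 fold change of 1.62 ± 0.11 (edgeR adjusted p = 1.16e-10). IFITM3 had 185, 194 and 191 CPM in KO libraries, against 72.6, 80.1 and 72.3 CPM in WT libraries (log2 fold change 1.34 ± 0.08). BST2, or tetherin, holds budding virus at the cell surface and was abundant in both genotypes, with 434, 448 and 457 CPM in KO libraries, against 318, 319.7 and 316 CPM in WT libraries. SIGLEC1, a sialic-acid lectin of macrophages, had 590.5, 634 and 636 CPM in KO libraries, against 259.95, 346 and 301 CPM in WT libraries, with no overlap. LGALS3BP, a secreted glycoprotein, had 143, 157 and 141 CPM in KO libraries, against 98.6, 107 and 107 CPM in WT libraries. All 3 rose, and their log2 fold changes were 0.49 ± 0.06, 1.04 ± 0.09 and 0.50 ± 0.09. PLSCR1, a phospholipid scramblase with antiviral activity, did not pass, with 144, 141 and 142 CPM in KO libraries, against 151, 151 and 136 CPM in WT libraries (log2 fold change -0.03 ± 0.05, edgeR adjusted p = 0.712). RTP4, a chaperone of receptors, did not pass either, at -0.14 ± 0.37.

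The 5 IFI genes all rose, by 0.64 to 1.44. IFI6 (ENSG00000126709, chromosome 1, 27666061 to 27672218), a small membrane protein, had 1082, 1362 and 1255 CPM in KO libraries, against 546, 573 and 641 CPM in WT libraries (log2 fold change 1.07 ± 0.22, edgeR adjusted p = 0.013). Leaving out WT replicate 1 took IFI6 to an adjusted p of 0.052. IFI44L had 142, 140.00 and 147 CPM in KO libraries, against 44.3, 64.7 and 49.1 CPM in WT libraries, a log2 fold change of 1.44 ± 0.11. IFI27 was low, with 8.45, 11.5 and 8.81 CPM in KO libraries, against 5.94, 6.33 and 6.13 CPM in WT libraries (0.64 ± 0.13).

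Enzymes and sensors of viral RNA rose more modestly, in 8 of 9 genes and by at most 0.82. OAS1 (ENSG00000089127, chromosome 12, 112906777 to 112933222), which makes the oligoadenylates that activate RNase L, had 153, 147 and 149 CPM in KO libraries, against 83.1, 92.9 and 77.8 CPM in WT libraries (log2 fold change 0.82 ± 0.07, edgeR adjusted p = 9.92e-09). OASL, a relative without that activity, had 17.2, 16.7 and 14.9 CPM in KO libraries, against 8.86, 12.1 and 7.72 CPM in WT libraries. OAS3 did not pass, at 0.24 ± 0.08 (edgeR adjusted p = 0.0666), although OAS1 and OAS2 beside it on chromosome 12 did. IFIH1, which encodes the double-stranded RNA sensor MDA5, had 112, 114 and 110.2 CPM in KO libraries, against 78.3, 87.1 and 74.7 CPM in WT libraries, a log2 fold change of 0.49 ± 0.06. ADAR, which edits adenosine to inosine in double-stranded RNA, had 634, 636 and 650.4 CPM in KO libraries, against 529, 568 and 521 CPM in WT libraries, a rise of 0.25 ± 0.05. All KO libraries lay above all WT libraries for IFIH1 and ADAR. The range over the other 4 genes, OAS2, the kinase EIF2AK2 (PKR), and the helicase-like DDX60 and DDX60L, was 0.64 to 0.76.

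The called genes of the remaining groups rose by at most 0.71. PARP9, its partner DTX3L, PARP12 and PARP14 rose by 0.35 to 0.66. STAT2 had 306, 301 and 299 CPM in KO libraries, against 241, 273 and 241 CPM in WT libraries (0.26 ± 0.05), and CMTR1, which methylates the messenger RNA cap, rose by 0.26 ± 0.05. Of the TRIM, SAMD9 and other effectors, 7 of 8 rose, by 0.25 to 0.71. ISG20, an exonuclease, was the exception, with 1.87, 2.24 and 1.18 CPM in KO libraries, against 1.13, 1.65 and 1.75 CPM in WT libraries (0.21 ± 0.30, edgeR adjusted p = 0.686). The calls on SAMD9 and SP110 were lost with single libraries left out, up to adjusted p = 0.146 for SAMD9 without WT replicate 3 and 0.086 for SP110 without WT replicate 1.

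WT replicate 2 was the highest of the 3 WT libraries for 43 of the 48 genes. The 48 genes summed to 5841.6 CPM in that library, against 5139.0 and 5189.6 CPM in the other WT libraries. Without it, 44 genes rose, with 1 call lost and 1 gained. The KO libraries also had more of some other myeloid transcripts and less of others. The 16 microglia and macrophage markers summed to 7224 to 7466 CPM in KO, against 7530 to 7652 CPM in WT libraries. Of these, 2 of the 14 tested were higher and 5 lower, beside 10.2% and 11.4% of all genes. The 6 monocyte markers summed to 1502 to 1620 CPM in KO, against 1053 to 1143 CPM in WT libraries, with 4 of the 6 higher and 1 lower. The 6 neutrophil markers summed to 184 to 190.0 CPM in KO, against 119 to 124 CPM in WT libraries, with 2 of the 3 tested higher, and ELANE at 0 in every KO and WT library. CSF3R made up most of the neutrophil sum. The 5 endothelial markers summed to 559 to 593 CPM in KO, against 509 to 542 CPM in WT libraries, with 2 of the 4 tested higher. Most of that sum was PECAM1, which myeloid cells also express. The part of these transcripts in the rise was not tested. Markers of plasmacytoid dendritic cells, the main interferon producers of blood, summed to 178 to 186 CPM in KO, against 246 to 256 CPM in WT libraries. Nearly all of this sum was TCF4 and IL3RA, and no other marker of that list had more than 26 counts in any library. CLEC4C, which defines these cells, was at 0 in all 12 libraries.

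LPS lowered most of the set in wild-type cells. In WT LPS against WT, 34 of the 48 genes fell, 3 rose and 11 did not pass, while 59.7% of all genes tested passed, 30.8% downward and 28.9% upward. The median log2 fold change was -0.58, against -0.07 over all genes. In all, 14 genes fell and 1 rose at least 2-fold, against 20.1% of all genes in either direction. Both WT LPS libraries lay above all WT libraries for 4 genes and below them for 36, against 33.9% and 38.4% of all genes. Of all calls 48.4% were upward, or 26.7% when libraries were scaled by their total count alone, which moved the median of all genes by -0.29.

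The steepest falls were in IFIT1, MX2 and OAS1. IFIT1 had 15.2 and 15.4 CPM in WT LPS libraries, against 64.7, 72.6 and 44.8 CPM in WT libraries, a log2 fold change of -1.98 ± 0.21 (edgeR adjusted p = 2.71e-05). MX2 had 14.4 and 12.01 CPM in WT LPS libraries, against 40.2 to 59.1 CPM in WT libraries (-1.84 ± 0.17, edgeR adjusted p = 2.45e-06). OAS1 had 25.5 and 23.8 CPM in WT LPS libraries, against 77.8 to 92.9 CPM in WT libraries (-1.78 ± 0.09, edgeR adjusted p = 2.52e-13). In each of the 3 genes the groups were separated by a wide gap. XAF1, a pro-apoptotic protein, fell by nearly as much, at -1.55 ± 0.16.

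By role, 4 of 4 IFIT genes fell, by 0.45 to 1.98, as did 4 of 4 genes of the ISG15 system (-0.21 to -1.32), 4 of 4 MX and viperin genes (-1.01 to -1.84) and 5 of 5 IFI genes (-0.46 to -1.32). Of the RNA enzymes and sensors 5 of 9 fell and DDX60L rose, of the membrane and secreted proteins 4 of 8 fell and PLSCR1 rose, and of the TRIM, SAMD9 and other effectors 7 of 8 fell. No PARP gene fell. PLSCR1 had 316 and 308 CPM in WT LPS libraries, against 136 to 151 CPM in WT libraries, a rise of 1.10 ± 0.06 (edgeR adjusted p = 1.04e-13). DDX60L had 111 and 129 CPM in WT LPS libraries, against 76.5 to 96.5 CPM in WT libraries (0.49 ± 0.09). PARP12 had 115 and 114 CPM in WT LPS libraries, against 85.7 to 91.6 CPM in WT libraries (0.38 ± 0.06). These were the 3 genes that rose, and on total counts alone DDX60L and PARP12 lost the call (adjusted p = 0.0618 and 0.163). IFITM3 and IFIH1 did not pass, at 0.08 ± 0.09 and 0.06 ± 0.06, and on total counts alone they were below 0 (-0.21 and -0.23). With single libraries left out, adjusted p reached 0.0572 for ISG15, 0.185 for IFI6 and 0.237 for IFITM1 without WT LPS replicate 2. It reached 0.482 for SP110, 0.0554 for SAMD9L and 0.0525 for TRIM5 without WT LPS replicate 1, and 0.224 for HERC6 without WT replicate 2. Other markers moved with LPS as well. Monocyte markers summed to 1787 to 1884 CPM in WT LPS, against 1053 to 1143 CPM in WT libraries, with 4 of 6 higher and 1 lower. Neutrophil markers summed to 74.05 to 79.01 CPM in WT LPS, against 119 to 124 CPM in WT libraries, with 3 of 3 lower, and endothelial markers to 221 to 248 CPM in WT LPS, against 509 to 542 CPM in WT libraries, with 2 of 4 lower. Their part in the fall of the set was not tested.

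In knockout cells LPS also lowered more of the genes than it raised. In KO LPS against KO, 27 of the 48 genes fell, 4 rose and 17 did not pass, while 44.8% of all genes passed, 20.3% downward and 24.5% upward. The median log2 fold change was -0.30, against 0.00 over all genes, and OAS1 alone fell at least 2-fold, while 11.2% of all genes changed by that much. Both KO LPS libraries lay above all KO libraries for 7 genes and below them for 36, against 32% and 30.1% of all genes. Of all calls 54.7% were upward, or 25.5% on total counts alone, which moved the median of all genes by -0.25. OAS1 had 81.1 and 67.4 CPM in KO LPS libraries, against 147 to 153 CPM in KO libraries (-1.01 ± 0.08, edgeR adjusted p = 9.5e-10). SP110, a nuclear body protein, had 4.97 and 3.63 CPM in KO LPS libraries, against 7.69 to 8.91 CPM in KO libraries (-0.94 ± 0.22). HERC5 had 62.4 and 60.7 CPM in KO LPS libraries, against 109 to 115 CPM in KO libraries (-0.87 ± 0.07). All 3 were lower in both KO LPS libraries than in any KO library.

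The genes that rose in KO LPS were DDX60L, PLSCR1, IFIH1 and PARP12. DDX60L had 202 and 186 CPM in KO LPS libraries, against 132 to 142 CPM in KO libraries (0.49 ± 0.09). PLSCR1 had 195 and 193 CPM in KO LPS libraries, against 141 to 144 CPM in KO libraries (0.45 ± 0.06). IFIH1 had 137 and 131 CPM in KO LPS libraries, against 110.2 to 114 CPM in KO libraries (0.26 ± 0.06), and without KO LPS replicate 1 its adjusted p was 0.0604. PARP12 had 125 and 133 CPM in KO LPS libraries, against 112 to 113 CPM in KO libraries (0.20 ± 0.06), and on total counts alone it was lower, at -0.05. Without KO LPS replicate 2 its adjusted p was 0.0664. ISG15, IFIT2, USP18, ADAR, RSAD2, LGALS3BP, IFI6, IFI27 and IFI35 fell with LPS in WT cells and did not pass in KO cells. Their log2 fold changes in KO cells lay between -0.61 (ISG15) and 0.25 (IFI27). Among these genes only IFIT2, RSAD2 and IFI27 passed the test of interaction given below. For the others a call in 1 genotype alone does not show that the genotypes differ. Without KO LPS replicate 2, 19 genes fell in place of 27. DDX60 (adjusted p = 0.153), HERC6 (0.0722), IFIT3 (0.092), IFIT5 (0.068), MX1 (0.0571), OAS3 (0.106), SAMD9 (0.331), SAMD9L (0.256), TRIM22 (0.0674) and XAF1 (0.0802) lost the call there, and ISG15 (0.0473) and LGALS3BP (0.0215) gained it. Monocyte markers summed to 2277 to 2616 CPM in KO LPS, against 1502 to 1620 CPM in KO libraries, with 4 of 6 higher and 2 lower. Neutrophil markers summed to 135 to 153 CPM in KO LPS, against 184 to 190.0 CPM in KO libraries, with 3 of 3 lower, and endothelial markers to 306 to 343 CPM in KO LPS, against 559 to 593 CPM in KO libraries, with 2 of 4 lower. Their part in the changes was not tested.

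**Figure D2:**
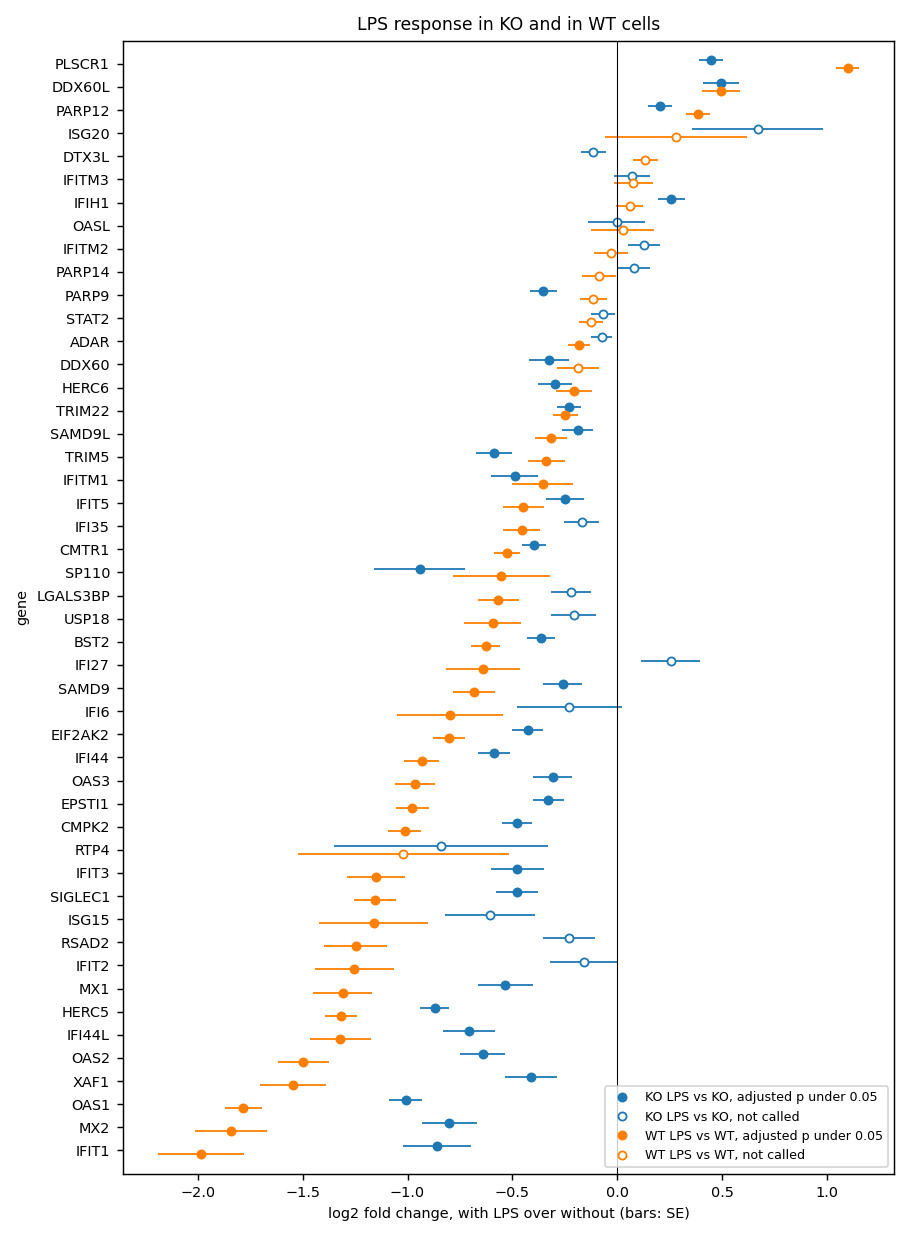
Log2 fold change with LPS over without (x axis, bars SE) for each of the 48 genes, in KO cells (blue, KO LPS over KO) and in WT cells (orange, WT LPS over WT); filled points passed the edgeR test. WT points are mostly left of 0, with IFIT1 at -1.98, while KO points end at -1.01 for OAS1, and PLSCR1 is right of 0 in both.

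With LPS present, the knockout cells again carried more transcript of nearly the whole set. In KO LPS against WT LPS, 44 of the 48 genes rose, 1 fell and 3 did not pass, while 30.6% of all genes passed, 15.6% upward and 15% downward. The median log2 fold change was 0.90, against 0.03 over all genes, and 22 genes rose at least 2-fold, against 5.62% of all genes that changed so in either direction. Both KO LPS libraries lay above both WT LPS libraries for 45 genes and below them for 1, against 30.9% and 29% of all genes. IFIT1 had 102 and 89.3 CPM in KO LPS libraries, against 15.2 and 15.4 CPM in WT LPS libraries, a log2 fold change of 2.64 ± 0.22 (edgeR adjusted p = 2.39e-05). MX2 had 83.8 and 78.1 CPM in KO LPS libraries, against 14.4 and 12.01 CPM in WT LPS libraries (2.62 ± 0.18, edgeR adjusted p = 1.1e-06). ISG15 had 88.5 and 119 CPM in KO LPS libraries, against 25.1 and 18.1 CPM in WT LPS libraries (2.27 ± 0.27, edgeR adjusted p = 0.000523). These were the 3 largest differences, and each KO LPS library was several times above both WT LPS libraries.

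In the ISG15 system, the IFIT genes and the MX and viperin genes, all 12 members rose. USP18 had 29.02 and 27.1 CPM in KO LPS libraries, against 7.58 and 8.57 CPM in WT LPS libraries (1.80 ± 0.14). IFIT3 had 177 and 157 CPM in KO LPS libraries, against 37.9 and 44.6 CPM in WT LPS libraries (2.02 ± 0.15). MX1 had 267 and 269.9 CPM in KO LPS libraries, against 61.999 and 56.4 CPM in WT LPS libraries (2.18 ± 0.15). These 3 were higher by 1.80 to 2.18 on the log2 scale. RSAD2 had 43.3 and 42.3 CPM in KO LPS libraries, against 10.2 and 12.6 CPM in WT LPS libraries (1.90 ± 0.16). CMPK2 had 115 and 115 CPM in KO LPS libraries, against 36.8 and 37.2 CPM in WT LPS libraries (1.64 ± 0.08). In both genes the KO LPS libraries were far above the WT LPS libraries.

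All 9 RNA enzymes and sensors were higher in the knockout cells under LPS. OAS1 had 81.1 and 67.4 CPM in KO LPS libraries, against 25.5 and 23.8 CPM in WT LPS libraries (1.59 ± 0.10). OASL had 16.3 and 16.1 CPM in KO LPS libraries, against 9.70 and 9.76 CPM in WT LPS libraries (0.73 ± 0.16). IFIH1 had 137 and 131 CPM in KO LPS libraries, against 83.8 and 82.9 CPM in WT LPS libraries (0.69 ± 0.07). The smallest rise of the 9 was in ADAR, with 623 and 592 CPM in KO LPS libraries, against 465 and 485 CPM in WT LPS libraries (0.35 ± 0.06).

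Membrane and secreted proteins again included the exception. IFITM1 had 16.4 and 14.3 CPM in KO LPS libraries, against 5.78 and 5.13 CPM in WT LPS libraries (1.49 ± 0.15). IFITM3 had 190.00 and 209 CPM in KO LPS libraries, against 89.7 and 68.5 CPM in WT LPS libraries (1.33 ± 0.10). Without LPS these differences were 1.62 and 1.34. BST2 had 339.7 and 354 CPM in KO LPS libraries, against 223 and 188 CPM in WT LPS libraries (0.75 ± 0.08). SIGLEC1 had 416 and 475 CPM in KO LPS libraries, against 137 and 134 CPM in WT LPS libraries (1.71 ± 0.11). LGALS3BP had 117 and 135 CPM in KO LPS libraries, against 79.3 and 61.1 CPM in WT LPS libraries (0.84 ± 0.11). PLSCR1 was the 1 gene that fell. It had 195 and 193 CPM in KO LPS libraries, against 316 and 308 CPM in WT LPS libraries (-0.68 ± 0.06, edgeR adjusted p = 2.28e-08).

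All 5 IFI genes rose, by 0.94 to 2.05. IFI6 had 776 and 1328 CPM in KO LPS libraries, against 386 and 289 CPM in WT LPS libraries (1.64 ± 0.28), and the pair of KO LPS libraries stood far apart. IFI44L had 91.2 and 83.9 CPM in KO LPS libraries, against 20.5 and 21.7 CPM in WT LPS libraries (2.05 ± 0.16). IFI27 had 10.4 and 12.5 CPM in KO LPS libraries, against 4.19 and 3.69 CPM in WT LPS libraries (1.54 ± 0.18). STAT2, a subunit of the complex that binds the ISRE, had 298 and 277 CPM in KO LPS libraries, against 232 and 229.8 CPM in WT LPS libraries (0.32 ± 0.06). In these last 3 genes both KO LPS libraries lay above both WT LPS libraries. ISG20 had 2.45 and 3.15 CPM in KO LPS libraries, against 2.13 and 1.56 CPM in WT LPS libraries and did not pass (0.60 ± 0.35, edgeR adjusted p = 0.201), nor did RTP4 or SP110, at 0.04 and 0.21. The 4 PARP and DTX3L genes rose by 0.17 to 0.63, and the calls of PARP12, DTX3L and TRIM5 were lost with single libraries left out, up to adjusted p = 0.274 for PARP12 without KO LPS replicate 2, 0.246 for DTX3L and 0.239 for TRIM5 without KO LPS replicate 1. Monocyte markers summed to 2277 to 2616 CPM in KO LPS, against 1787 to 1884 CPM in WT LPS libraries, with 3 of 6 higher and 1 lower. Neutrophil markers summed to 135 to 153 CPM in KO LPS, against 74.05 to 79.01 CPM in WT LPS libraries, with 2 of 3 higher. Endothelial markers summed to 306 to 343 CPM in KO LPS, against 221 to 248 CPM in WT LPS libraries, with 4 of the 4 tested higher, 3 of them at least 2-fold. Those 3, CDH5, VWF and KDR, stood on few reads, at most 49 counts in any of these libraries. Most of the sum was again PECAM1. The part of these markers in the difference was not tested.

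**Figure D3:**
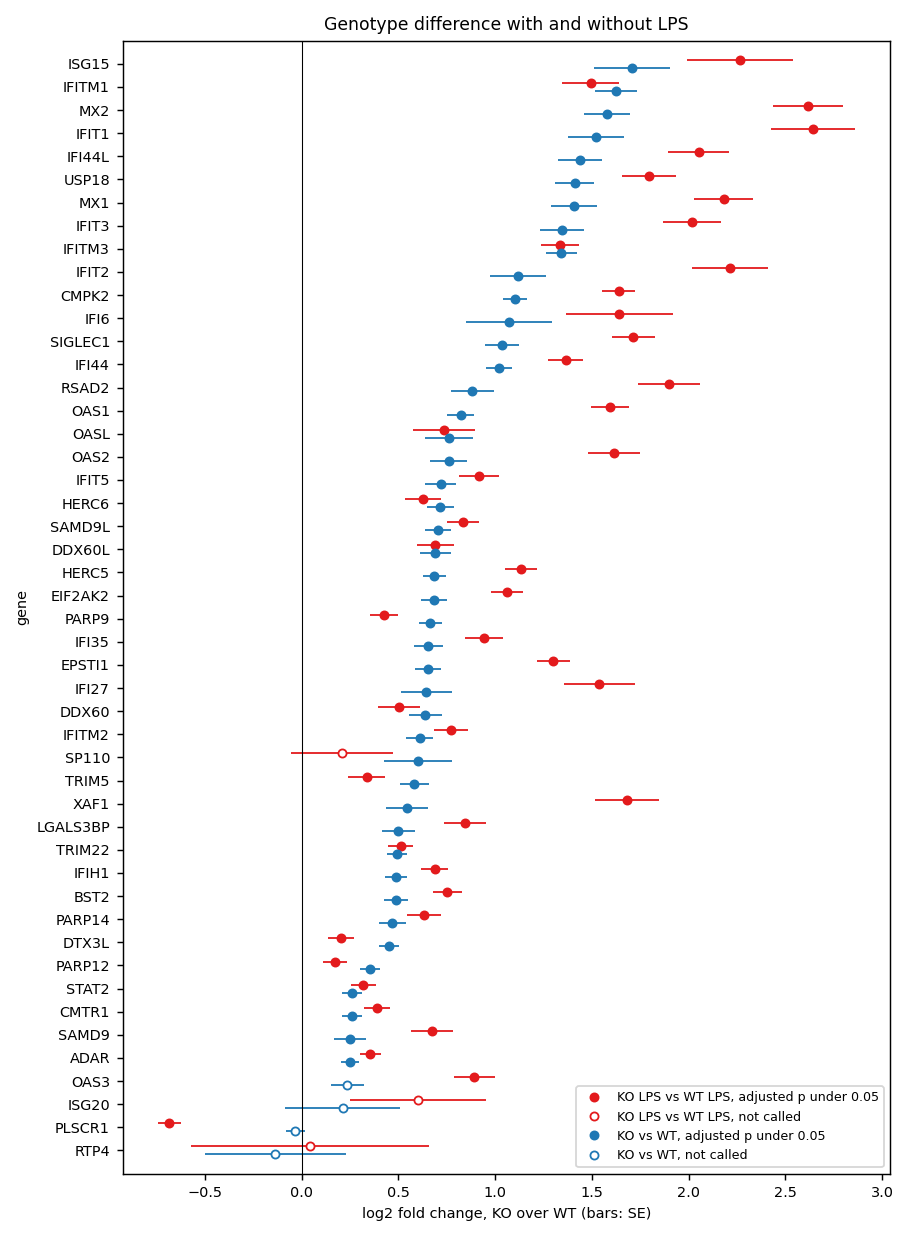
Log2 fold change of KO over WT (x axis, bars SE) for each of the 48 genes, with LPS (red, KO LPS over WT LPS) and without (blue, KO over WT); filled points passed the edgeR test. Nearly all points lie right of 0, those with LPS reach 2.64 (IFIT1), and PLSCR1 lies left of 0 with LPS at -0.68.

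Whether LPS acted differently in the genotypes was tested as an interaction, the LPS change in KO cells minus that in WT cells. It was higher in KO for 17 of the 48 genes, lower for 1 and did not pass for 30, while 12% of all genes passed, 6.42% in the higher and 5.57% in the lower direction. The median was 0.32, against 0.05 over all genes, and 5 genes differed at least 2-fold, against 1.48% of all genes. Of all calls 53.5% were in the higher direction, or 43.5% with DESeq2 size factors and 65.3% on total counts alone. XAF1 differed most, by 1.14 ± 0.20 (edgeR adjusted p = 0.000557), with LPS changes of -0.41 in KO cells and -1.55 in WT cells. It had 19.6 and 17.8 CPM in KO LPS, against 24.7, 23.7 and 26.2 CPM in KO libraries, and 5.71 and 5.94 CPM in WT LPS, against 14.2, 20.997 and 15.9 CPM in WT libraries. XAF1 was thus lowest in WT LPS, with no overlap with another group. IFIT1 differed by 1.12 ± 0.26 (edgeR adjusted p = 0.0259) and IFIT2 by 1.09 ± 0.25 (edgeR adjusted p = 0.0217). IFIT2 had 108 and 93.4 CPM in KO LPS, against 112, 110.3 and 116 CPM in KO libraries, and 20.3 and 23.1 CPM in WT LPS, against 56.7, 60.5 and 38.6 CPM in WT libraries. MX2 and RSAD2 differed by 1.04 ± 0.21 and 1.02 ± 0.19. In all 5 genes the fitted LPS change was less negative in KO cells. PLSCR1 differed the other way, by -0.65 ± 0.08 (edgeR adjusted p = 1.01e-05), with LPS changes of 0.45 in KO cells and 1.10 in WT cells. The other genes with a positive difference were IFIT3, HERC5, OAS1, OAS2, OAS3, EIF2AK2, MX1, CMPK2, SIGLEC1, IFI27, IFI44 and EPSTI1. The count of 17 was 8 without WT LPS replicate 2 and 11 without KO LPS replicate 1, and the count of 1 was 4 without KO LPS replicate 1. Of the 18 calls, 7 held with every library left out in turn and under the other settings tried: HERC5, OAS1, RSAD2, CMPK2, XAF1 and EPSTI1 on the positive side and PLSCR1 on the negative. Adjusted p reached 0.133 for IFIT1, 0.103 for MX2, 0.169 for MX1, 0.0509 for OAS2, 0.0859 for SIGLEC1 and 0.0685 for IFI27 without WT LPS replicate 2. It reached 0.0987 for IFIT2, 0.171 for IFIT3, 0.0561 for OAS3 and 0.101 for EIF2AK2 without WT LPS replicate 1, and 0.211 for IFI44 without KO LPS replicate 1.

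**Figure D4:**
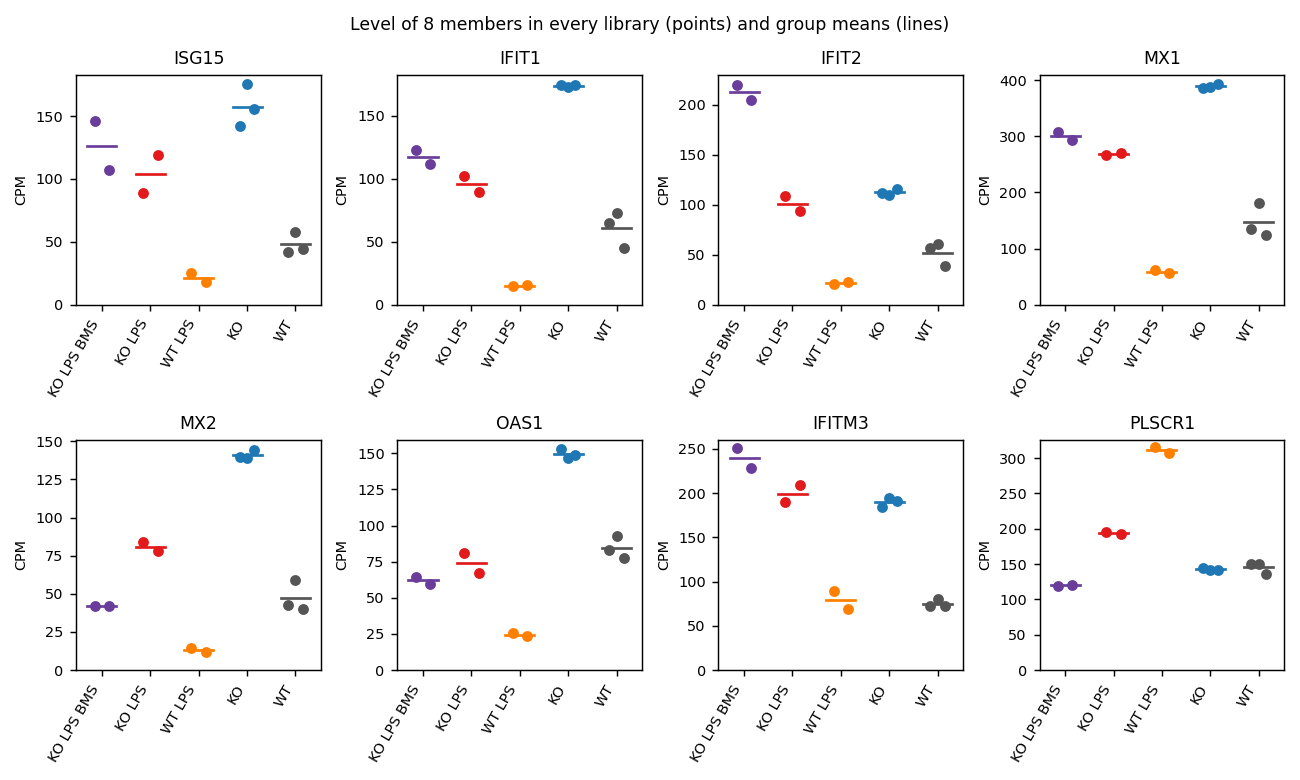
CPM (y axis, from 0) of 8 genes in each library (points) with group means (lines), in the groups KO LPS BMS, KO LPS, WT LPS, KO and WT. WT LPS is lowest for ISG15, IFIT1, IFIT2, MX1, MX2 and OAS1 and highest for PLSCR1, and KO LPS BMS is highest for IFIT2.

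With BMS265246 added to LPS-treated knockout cells, more of the genes rose than fell, and the share that fell was not above that of all genes. In KO LPS BMS against KO LPS, 19 of the 48 genes rose, 11 fell and 18 did not pass, while 47.8% of all genes passed, 22.3% upward and 25.5% downward. The median log2 fold change was 0.15, against -0.04 over all genes. At least 2-fold rises were seen in 2 genes, against changes of that size in 11.8% of all genes. Both KO LPS BMS libraries lay above both KO LPS libraries for 24 genes and below them for 13, against 32.8% and 37.6% of all genes. IFIT2 (ENSG00000119922, chromosome 10, 89283694 to 89309276), a partner of IFIT1 and IFIT3, had 220.3 and 205 CPM in KO LPS BMS libraries, against 108 and 93.4 CPM in KO LPS libraries (1.07 ± 0.17, edgeR adjusted p = 0.000779). SP110 had 6.93 and 10.7 CPM in KO LPS BMS libraries, against 4.97 and 3.63 CPM in KO LPS libraries (1.05 ± 0.24, edgeR adjusted p = 0.001). IFIT5, the member that binds capless RNA ends, had 70.8 and 71.3 CPM in KO LPS BMS libraries, against 36.3 and 36.7 CPM in KO LPS libraries (0.96 ± 0.09, edgeR adjusted p = 3.46e-08). These 3 had the largest rises, and their groups did not overlap.

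SAMD9 (ENSG00000205413, chromosome 7, 93099513 to 93118023), which restricts poxviruses, had the largest fall, with 29.1 and 31.6 CPM in KO LPS BMS libraries, against 65.3 and 54.3 CPM in KO LPS libraries (-0.98 ± 0.11, edgeR adjusted p = 1.13e-06). MX2 had 41.9 and 41.7 CPM in KO LPS BMS libraries, against 83.8 and 78.1 CPM in KO LPS libraries (-0.95 ± 0.15, edgeR adjusted p = 0.000422). TRIM5, which recognises retroviral capsids, had 27.8 and 22.7 CPM in KO LPS BMS libraries, against 47.7 and 39.9 CPM in KO LPS libraries (-0.80 ± 0.10, edgeR adjusted p = 1.37e-06). PLSCR1 had 119 and 121 CPM in KO LPS BMS libraries, against 195 and 193 CPM in KO LPS libraries (-0.69 ± 0.06). The other genes that fell were DDX60L, SAMD9L, HERC6, HERC5, DDX60, IFI35 and OAS1, by 0.26 to 0.58. DDX60 and OAS1 lost the call without KO LPS replicate 1 (adjusted p = 0.266 and 0.555) and IFI35 without KO LPS BMS replicate 2 (0.0987).

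Neighbouring genes of 1 family did not always move together. MX1 had 307 and 294 CPM in KO LPS BMS libraries, against 267 and 269.9 CPM in KO LPS libraries, and did not pass (0.16 ± 0.14), beside the fall of MX2. IFIT1 had 123 and 112 CPM in KO LPS BMS libraries, against 102 and 89.3 CPM in KO LPS libraries and did not pass (0.29 ± 0.18). IFIT3 had 269 and 243 CPM in KO LPS BMS libraries, against 177 and 157 CPM in KO LPS libraries, a rise of 0.61 ± 0.14. Within the OAS family, OAS3 rose by 0.34 ± 0.10, OAS1 fell by 0.26, with 64.6 and 59.7 CPM in KO LPS BMS libraries, against 81.1 and 67.4 CPM in KO LPS libraries, and OAS2 did not pass. OASL had 15.4 and 14.998 CPM in KO LPS BMS libraries, against 16.3 and 16.1 CPM in KO LPS libraries and did not pass either.

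In the ISG15 system nothing rose, and HERC5 and HERC6 fell. ISG15 had 146 and 107 CPM in KO LPS BMS libraries, against 88.5 and 119 CPM in KO LPS libraries, and the groups overlapped (0.28 ± 0.24, edgeR adjusted p = 0.368). USP18 had 28.3 and 25.2 CPM in KO LPS BMS libraries, against 29.02 and 27.1 CPM in KO LPS libraries (-0.07 ± 0.12), also overlapping. RSAD2 had 58.5 and 56.1 CPM in KO LPS BMS libraries, against 43.3 and 42.3 CPM in KO LPS libraries, a rise of 0.42 ± 0.13. CMPK2 had 127 and 118 CPM in KO LPS BMS libraries, against 115 and 115 CPM in KO LPS libraries and did not pass (0.09 ± 0.08). The rise of RSAD2 lost the call without KO LPS BMS replicate 1 (adjusted p = 0.0917), that of OAS3 without KO LPS replicate 2 (0.0825) and that of XAF1 without KO LPS replicate 2 (0.172).

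Of the genes of membrane and secreted proteins, 4 of 8 rose and PLSCR1 fell. IFITM1 had 22.6 and 24.3 CPM in KO LPS BMS libraries, against 16.4 and 14.3 CPM in KO LPS libraries (0.61 ± 0.12). IFITM3 had 251 and 228 CPM in KO LPS BMS libraries, against 190.00 and 209 CPM in KO LPS libraries (0.26 ± 0.10), a call lost without KO LPS BMS replicate 1 (adjusted p = 0.199). Tetherin and the secreted glycoprotein moved the same way. BST2 had 584 and 497 CPM in KO LPS BMS libraries, against 339.7 and 354 CPM in KO LPS libraries (0.64 ± 0.07). LGALS3BP had 189 and 171 CPM in KO LPS BMS libraries, against 117 and 135 CPM in KO LPS libraries (0.52 ± 0.10). In these 4 genes both libraries with the compound were above both without it. SIGLEC1 had 485 and 459 CPM in KO LPS BMS libraries, against 416 and 475 CPM in KO LPS libraries and did not pass (0.08 ± 0.11).

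IFIH1 had 201 and 199.7 CPM in KO LPS BMS libraries, against 137 and 131 CPM in KO LPS libraries (0.58 ± 0.07, edgeR adjusted p = 4.49e-07). ADAR had 745 and 776 CPM in KO LPS BMS libraries, against 623 and 592 CPM in KO LPS libraries (0.32 ± 0.06). STAT2 had 358 and 369.6 CPM in KO LPS BMS libraries, against 298 and 277 CPM in KO LPS libraries (0.34 ± 0.06). These 3 rose, as did EIF2AK2, PARP14, DTX3L and CMTR1, by 0.49 to 0.59. Of the IFI genes IFI44L rose, with 129 and 145 CPM in KO LPS BMS libraries, against 91.2 and 83.9 CPM in KO LPS libraries (0.65 ± 0.14). IFI6 had 1702 and 1289.7 CPM in KO LPS BMS libraries, against 776 and 1328 CPM in KO LPS libraries, overlapping (0.51 ± 0.27), and IFI27 had 11.1 and 11.2 CPM in KO LPS BMS libraries, against 10.4 and 12.5 CPM in KO LPS libraries (-0.04 ± 0.16). ISG20 had 3.15 and 1.54 CPM in KO LPS BMS libraries, against 2.45 and 3.15 CPM in KO LPS libraries. None of the last 3 passed. Monocyte markers summed to 1150 to 1350 CPM in KO LPS BMS, against 2277 to 2616 CPM in KO LPS libraries, with 5 of 6 lower and 1 higher. The 16 microglia and macrophage markers summed to 7830 to 8412 CPM in KO LPS BMS, against 7347 to 7894 CPM in KO LPS libraries, with 9 of 14 tested higher and 4 lower. Their part in these changes was not tested.

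**Figure D5:**
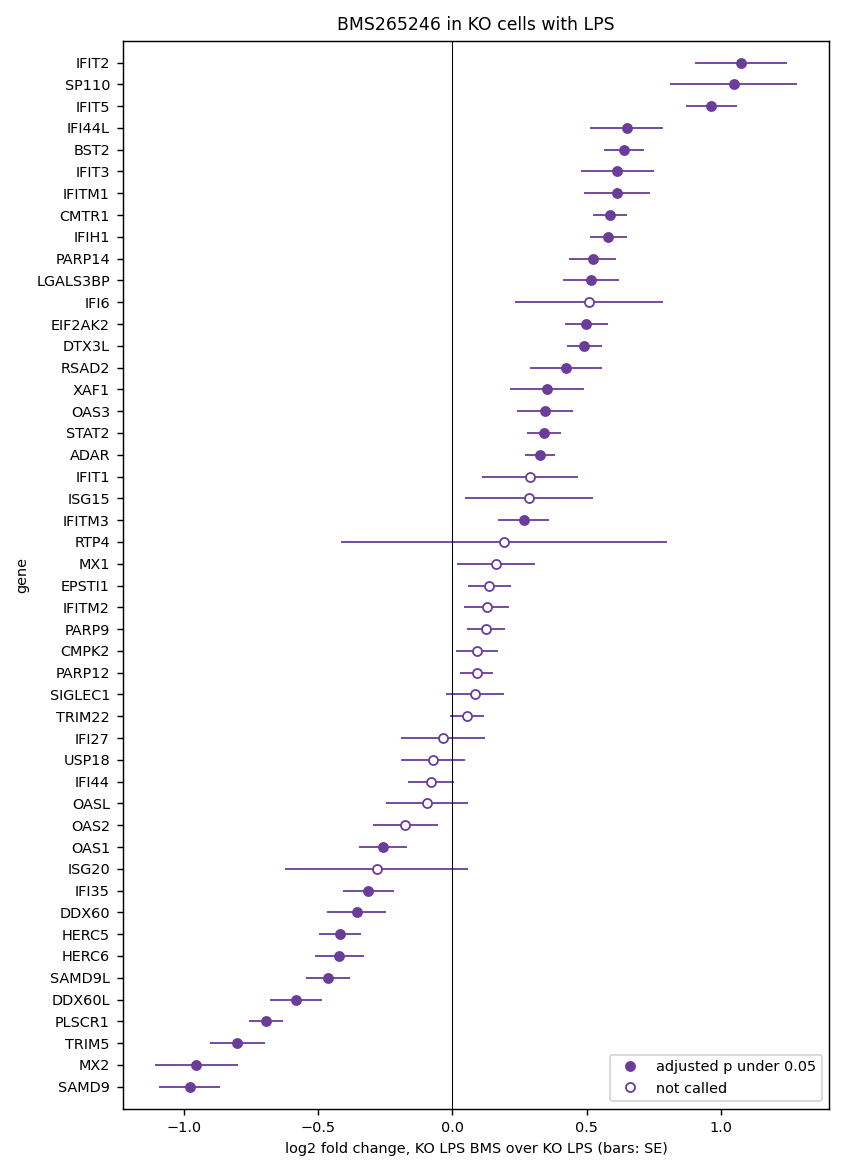
Log2 fold change of KO LPS BMS over KO LPS (x axis, bars SE) for each of the 48 genes, ordered by size; filled points passed the edgeR test. The genes run from IFIT2 at 1.07 to SAMD9 at -0.98, with 19 filled points right of 0 and 11 left of it.

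Set against KO cells with neither agent, the genes given LPS and the compound together had a median, and shares above and below the KO libraries, near those of all genes. In KO LPS BMS against KO, 13 of the 48 genes were higher, 20 lower and 15 did not pass, while 62.7% of all genes passed, 30.3% upward and 32.4% downward. The median log2 fold change was -0.07, against -0.06 over all genes. At least 2-fold falls were seen in 5 genes, against changes of that size in 22.6% of all genes. Both KO LPS BMS libraries lay above all KO libraries for 16 genes and below them for 20, against 36% and 40.2% of all genes. IFIT2, IFIH1 and IFIT5 were the highest, at 0.91 ± 0.15, 0.84 ± 0.06 and 0.71 ± 0.08. MX2, TRIM5 and HERC5 were the lowest, at -1.76 ± 0.14, -1.39 ± 0.09 and -1.29 ± 0.07. MX2 had 41.9 and 41.7 CPM in KO LPS BMS libraries, against 139 to 144 CPM in KO libraries, a wide gap. TRIM5 had 27.8 and 22.7 CPM in KO LPS BMS libraries, against 63.7 to 68.5 CPM in KO libraries, and HERC5 had 46.1 and 46.1 CPM in KO LPS BMS libraries, against 109 to 115 CPM in KO libraries. These 3 genes were lower in both KO LPS BMS libraries than in any KO library. IFIT2 had 220.3 and 205 CPM in KO LPS BMS libraries, against 110.3 to 116 CPM in KO libraries, and IFIT5 had 70.8 and 71.3 CPM in KO LPS BMS libraries, against 41.6 to 44.3 CPM in KO libraries. IFIH1 had 201 and 199.7 CPM in KO LPS BMS libraries, against 110.2 to 114 CPM in KO libraries. OAS1 and SAMD9 were the other 2 of the 5 genes more than 2-fold lower. On total counts alone ADAR, IFITM2, IFITM3, BST2, LGALS3BP, PARP12, STAT2 and CMTR1, all among the 13 called higher, were below 0, 4 genes were called higher, and 26.1% of all calls were upward in place of 48.4%. That scaling moved the median of all genes by -0.34. Without KO LPS BMS replicate 1, BST2 (adjusted p = 0.0863), IFITM2 (0.135), LGALS3BP (0.12), PARP9 (0.106) and TRIM22 (0.126) lost the call. Without KO LPS BMS replicate 2, CMTR1 (0.0667), EPSTI1 (0.145), IFIT1 (0.101), MX1 (0.157) and USP18 (0.255) lost it. This comparison shares its KO libraries with that of genotype and its KO LPS BMS libraries with that of the compound.

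Transcripts of the inducing cytokines were close to absent in these libraries. The cytokines themselves were not measured, and the exposure times are not given. IFNB1, which encodes interferon beta, had 7 and 9 reads in KO LPS BMS libraries, 7 and 4 in KO LPS, 4 and 0 in WT LPS, 0, 5 and 4 in KO and 1, 1 and 2 in WT libraries, too few to be tested. Of the 13 IFNA genes listed, 3 had a single read in 1 library each and the others none. IFNE, IFNK and IFNW1 had at most 3 reads in any library, as had IFNG, IFNL1, IFNL2 and IFNL3.

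Of 6 receptor genes none rose in KO against WT, beside 10.2% of all genes. IFNAR1 and IFNAR2 fell, by 0.14 and 0.24, beside 11.4% of all genes. Both calls were lost with single libraries left out, up to adjusted p = 0.193 for IFNAR1 without WT replicate 1 and 0.0906 for IFNAR2 without KO replicate 1. The adjusted p of IFNAR1 was also 0.0667 with the replicate block and with a stricter low-count filter, 0.0609 with DESeq2 size factors, 0.0846 with the DESeq2 Wald test and 0.0652 on total counts alone. In KO LPS BMS against KO LPS 5 of the 6 rose and 0 fell, beside 22.3% and 25.5% of all genes. The call of IFNGR2 among these was lost on total counts alone (adjusted p = 0.0784), without KO LPS replicate 1 (0.14) and without KO LPS BMS replicate 1 (0.193). IFNAR1 had 414 and 439 CPM in WT LPS libraries, against 229, 206 and 219 CPM in WT libraries (0.97 ± 0.06, edgeR adjusted p = 7.65e-13). It also rose with LPS in KO cells, by 0.74 ± 0.06. IFNAR2, the other chain, fell slightly with LPS in both genotypes, by -0.23 ± 0.08 in WT cells and -0.21 in KO cells. Both calls were lost with the DESeq2 Wald test (adjusted p = 0.0785 in WT cells and 0.0791 in KO cells). Without WT LPS replicate 1 the log2 fold change in WT cells was -0.22. IFNAR2 rose with the compound, with 39.2 and 41.8 CPM in KO LPS BMS libraries, against 27.4 and 28.7 CPM in KO LPS libraries (0.53 ± 0.09).

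Of 5 signalling genes, STAT2 rose and JAK1 fell in KO against WT, beside 10.2% and 11.4% of all genes. JAK1, the kinase bound to the receptor, had 180.2, 180.04 and 179.9 CPM in KO libraries, against 227, 207 and 206 CPM in WT libraries (-0.24 ± 0.05, edgeR adjusted p = 0.000867). With LPS it rose by 1.44 ± 0.05 in WT cells and by 1.09 ± 0.06 in KO cells. IRF9 was low and passed in 1 of the comparisons, WT LPS against WT (-0.47 ± 0.20, edgeR adjusted p = 0.0472), where it lost the call with most single libraries left out (up to adjusted p = 0.332 without WT LPS replicate 1).

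Sensors and transcription factors upstream of interferon were divided in each comparison. Of 21 listed, 18 could be tested, and 4 rose and 5 fell in KO against WT, beside 10.2% and 11.4% of all genes. RIGI, the sensor of short viral RNA, had 94.6, 95.8 and 95.3 CPM in KO libraries, against 50.96, 58.1 and 43.9 CPM in WT libraries (0.90 ± 0.08, edgeR adjusted p = 6.2e-08). IRF7, which amplifies the interferon response, had 65.9, 79.9 and 74.8 CPM in KO libraries, against 35.8, 46.01 and 38.1 CPM in WT libraries (0.88 ± 0.21, edgeR adjusted p = 0.0234), a call lost without WT replicate 1 (adjusted p = 0.077), with the replicate block (0.0562) and with no low-count filter (0.0563). TLR3 and IKBKE rose too, at 0.90 and 0.21, and TLR4, the LPS receptor, fell by 0.25. The adjusted p was 0.0738 for IKBKE without KO replicate 2 and 0.0633 for TLR4 without WT replicate 1. With LPS, 6 rose and 8 fell in WT cells, beside 28.9% and 30.8% of all genes, and 6 rose and 5 fell in KO cells, beside 24.5% and 20.3% of all genes. TBK1 and TICAM1 rose and TLR4 and IRF3 fell with LPS in both genotypes.

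With BMS265246, 15 of these 18 genes passed in KO LPS BMS against KO LPS, 6 upward and 9 downward, beside 47.8% of all genes, 22.3% upward and 25.5% downward. IRF8, a macrophage transcription factor, had 815 and 776 CPM in KO LPS BMS libraries, against 205 and 226 CPM in KO LPS libraries (1.89 ± 0.06, edgeR adjusted p = 1.81e-15). IRF1, which can bind the ISRE core by itself, had 110.2 and 112 CPM in KO LPS BMS libraries, against 53.3 and 57.9 CPM in KO LPS libraries (1.00 ± 0.07, edgeR adjusted p = 3.21e-10). TICAM1 had 155 and 129 CPM in KO LPS BMS libraries, against 51.8 and 70.2 CPM in KO LPS libraries (1.22 ± 0.14). In these 3 genes the groups of libraries were well apart. The kinase IKBKE had 67.4 and 58.8 CPM in KO LPS BMS libraries, against 152 and 162 CPM in KO LPS libraries (-1.32 ± 0.07). STING1, the adaptor of cytosolic DNA sensing, had 29.2 and 27.7 CPM in KO LPS BMS libraries, against 52.05 and 60.3 CPM in KO LPS libraries (-0.98 ± 0.10). IRF7 fell by 0.79 and RIGI by 0.56. The fall of IRF7 lost the call with no low-count filter (adjusted p = 0.117), with only the groups compared (0.136), without KO LPS BMS replicate 2 (0.219), without KO LPS replicate 2 (0.213) and with the replicate block (0.0837).

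Among 8 inhibitors of the pathway, 2 rose and 2 fell in KO against WT, beside 10.2% and 11.4% of all genes. NLRC5 had 30.01, 32.8 and 30.2 CPM in KO libraries, against 14.9, 14.8 and 16.1 CPM in WT libraries (1.02 ± 0.08). SOCS3, which blocks cytokine receptors, fell by 0.59. LPS raised SOCS3, PTPN1, PTPN2 and PTPN6 in both genotypes, PTPN6 in WT cells not on total counts alone (adjusted p = 0.432). The phosphatase PTPN2, which acts on JAK1, had 243 and 273 CPM in WT LPS libraries, against 57.3, 55.4 and 50.05 CPM in WT libraries (2.25 ± 0.08, edgeR adjusted p = 1.21e-15). With the compound PTPN2 had 47.99 and 53.6 CPM in KO LPS BMS libraries, against 156 and 151 CPM in KO LPS libraries (-1.59 ± 0.09), and PTPN6 and NLRC5 fell by 1.02 and 1.54.

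Some of the 48 genes share exon bases with a neighbour, and the rule for reads in shared bases and the strand setting were not stated. IFITM1 and IFITM2 share 351 exon bases, 32.5% of IFITM1 and 22.75% of IFITM2, on the same strand. XAF1 shares 38.32% of its exon bases with PRAL and IFITM3 21.29% with AC136475.5, both on the opposite strand, and SP110 shares 18.38% with AC009950.1, also on the opposite strand. PRAL, AC136475.5 and AC009950.1 held fewer reads than their partners. Over all libraries PRAL had 91 against 3692 for XAF1, and AC136475.5 had 53 against 29377 for IFITM3. AC009950.1 had 309 against 1244 for SP110. Other neighbours held more reads. IFITM2 had 13544 against 2819 for IFITM1. IFIT2 shares 1.58% of its exon bases with LIPA, on the opposite strand, and LIPA had 186188 reads against 18542 for IFIT2. SP110 also shares 2.48% with SP140, on the opposite strand, which had 1000 reads. Counts of these genes are uncertain for that reason.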

How the data were processed

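RNA sequencing of 12 libraries was analysed from 1 table of total read counts per Ensembl gene ID, deposited by the authors. CASAVA 1.7, Cufflinks and the build GRCh38 are named per the submitters' processing notes; the sources used here do not give the aligner, counter, annotation or strand setting. Library totals were 13888283 to 17639136 counts. Titles number biological replicates without saying whether these were separate differentiations, so p-values measure the spread between these samples. The number of knockout lines is not given, so an effect of the MEF2C edit and a difference between lines cannot be told apart.

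In R 4.3.3, edgeR 4.0.16 (filterByExpr, TMM scaling, 1 mean per group, robust quasi-likelihood F test) was fitted to all 12 libraries and 16022 genes, and p-values were adjusted over all of them by the Benjamini-Hochberg method; a call is an adjusted p under 0.05. CPM use TMM-scaled totals, and ± after a log2 fold change is its SE. Alternatives were DESeq2 1.42.0 (size factors, Wald test), total counts alone, other low-count filters, only the groups compared, a replicate block and each library left out. On data simulated for KO against WT with 15367 genes, 56.7% of 1.5-fold, 73.1% of 2-fold and 90.9% of 4-fold changes were recovered. In the simulation of the interaction, with 15375 genes, these shares were 37.3%, 58.2% and 77.3%. False calls were 12 of 159 in the simulation of KO against WT and 9 of 124 in that of the interaction. Each simulation changed only 67, 67 and 66 genes by these folds and gave all other genes equal means. Many more genes were called in the real comparisons, so recovery there can differ. Gene positions are from GENCODE release 29 and promoters from RefSeq.

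The genes, lists and tests were chosen with earlier results of these data known. Genes named are a set panel of 22, the 3 largest called rises and falls per comparison, calls against the majority, and a list of pathway genes. A further pathway gene is not reported here.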

Additional observations from a re-analysis of the deposited data

Results flagged for a closer look

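The LPS effect differed between the genotypes, by the interaction term of the edgeR fit, for 18 of the 48 interferon-stimulated genes and 10 pathway genes. Values are the log2 LPS effect in KO minus that in WT. Among the interferon-stimulated genes the difference was 1.14 for XAF1, 1.12 for IFIT1, 1.09 for IFIT2, 1.04 for MX2 and 1.02 for RSAD2. It was 0.89 for IFI27, 0.85 for OAS2, 0.77 for MX1, 0.77 for OAS1, 0.68 for SIGLEC1 and 0.67 for IFIT3. Smaller differences were 0.66 for OAS3, 0.65 for EPSTI1, 0.54 for CMPK2, 0.45 for HERC5, 0.38 for EIF2AK2 and 0.35 for IFI44. PLSCR1 had the opposite sign, at -0.65.

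Of the pathway genes, the difference was positive for IRF5 (0.66), DHX58 (0.56), STING1 (0.48) and IRF1 (0.35). Negative differences were those of TLR8 (-0.99), PTPN2 (-0.48), PTPN1 (-0.47), JAK1 (-0.35), IFNGR1 (-0.33) and TBK1 (-0.30). With single libraries left out, adjusted p reached 0.0521 for DHX58, 0.12 for STING1, 0.0541 for PTPN2 and 0.244 for TBK1 without WT LPS replicate 2, and 0.111 for IRF1 and 0.0507 for IFNGR1 without KO LPS replicate 2. TBK1 also lost the call with the replicate block (0.0809) and on total counts alone (0.0918), and IRF1 with the DESeq2 Wald test (0.0568) and only the groups compared (0.0536). No group held 4 libraries, so single libraries were not screened as outliers.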

How the results depend on the processing

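Calls on the 48 genes held in every setting tried for 41 of 44 in KO against WT, 28 of 37 in WT LPS against WT, 19 of 31 in KO LPS against KO, 42 of 45 in KO LPS against WT LPS, 7 of 18 in the interaction, 23 of 30 in KO LPS BMS against KO LPS and 18 of 33 in KO LPS BMS against KO. On total counts alone, 1 gene was called higher and 43 lower in WT LPS against WT in place of 3 and 34, 2 and 35 in KO LPS against KO in place of 4 and 27, and 4 and 28 in KO LPS BMS against KO in place of 13 and 20. That scale changed the sign of 5 of the 48 genes in WT LPS against WT, 5 in KO LPS against KO, 3 in the interaction, 2 in KO LPS BMS against KO LPS and 16 in KO LPS BMS against KO. Those of them called under either scaling were IFIH1 (-0.23), IFITM3 (-0.21) and DTX3L (-0.15) in WT LPS against WT, and PARP12 (-0.0493) in KO LPS against KO. In KO LPS BMS against KO they were OAS3 (-0.30), EIF2AK2 (-0.27), CMTR1 (-0.15), ADAR (-0.0885), IFITM2 (-0.0818), STAT2 (-0.0666), BST2 (-0.0623), LGALS3BP (-0.0429), PARP12 (-0.0434) and IFITM3 (-0.0041). Of pathway genes, added after seeing the data, the sign reversed, with a call under either scaling, for IL10RB (-0.194) in WT LPS against WT, TLR7 (-0.236) in KO LPS against KO, and IFNAR2 (-0.0139), IRF2 (-0.0452) and TRIM21 (-0.262) in KO LPS BMS against KO. In that scaling the median of all genes moves with the total counts, and the members' median less that of all genes stayed at -0.51 in WT LPS against WT, -0.30 in KO LPS against KO and -0.02 in KO LPS BMS against KO. With only the groups compared in the fit, 2660 genes were called in KO LPS against WT LPS in place of 4900; that fit has fewer samples. The count of lower genes in the interaction was 2 with DESeq2 size factors, the DESeq2 Wald test or only the groups compared, and 3 with no low-count filter, in place of 1.

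Leaving out each library in turn gave 41 to 44 higher genes in KO against WT (2593 to 3857 of all genes called) and 0 lower. It gave 29 to 36 lower and 3 to 4 higher in WT LPS against WT (8052 to 9949 called), and 19 to 29 lower and 3 to 6 higher in KO LPS against KO (6037 to 7375 called). It gave 41 to 44 higher and 1 lower in KO LPS against WT LPS (3005 to 5549 called, with 3005 without KO LPS replicate 2 and 3138 without WT LPS replicate 2). For the interaction it gave 8 to 17 higher and 1 to 4 lower (1162 to 3079 called, with 1162 without KO LPS replicate 2, 1212 without WT LPS replicate 2 and 3079 without KO LPS replicate 1). It gave 15 to 20 higher and 9 to 11 lower in KO LPS BMS against KO LPS (6242 to 7869 called), and 10 to 14 higher and 16 to 20 lower in KO LPS BMS against KO (8646 to 10470 called). Where this leaves 1 library in a group, that library is taken to vary like the others.

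The labels do not say whether the replicate numbers pair the samples, and correlations within groups of 2 or 3 libraries cannot decide it. Same-numbered KO and WT libraries had correlated deviations of 0.124, 0.043 and 0.003. KO 1 correlated best with WT 1, KO 2 with WT 3 and KO 3 with WT 3. Among the LPS groups of 2, where both numbers give the same value, the correlation was -0.276 for KO LPS with WT LPS, 0.223 for KO LPS BMS with WT LPS and -0.271 for KO LPS BMS with KO LPS. As a replicate block they gave 44 higher and 0 lower genes in KO against WT (3091 called), 3 and 32 in WT LPS against WT (8973), 4 and 26 in KO LPS against KO (6562), and 43 and 1 in KO LPS against WT LPS (4454). The block gave 16 and 1 in the interaction (1543), 17 and 11 in KO LPS BMS against KO LPS (7379), and 13 and 20 in KO LPS BMS against KO (9551). Depth limits what can be said of genes with few reads, such as RTP4, ISG20 and the interferon genes.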
